A study of Mus musculus with 8 samples.

Results

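The 10 genes described here mark the endothelial cells that line the sinusoids of the liver. They are Cdh5, Pecam1, Kdr, Tek, Eng, Stab1, Stab2, Lyve1, Clec4g and Fcgr2b, chosen by symbol from the 55416 genes of the deposited expression table, and all 10 were found. Their mRNA was measured by bulk RNA sequencing of whole liver in 4 groups of mice with 2 libraries each, 8 in all. Mice of the control genotype were Glul flox/flox, with floxed alleles of the gene of glutamine synthetase. Those of the other genotype, GlulΔlyz2 (KO), lack Glul where Cre is made from the Lyz2 locus. That locus is active in macrophages, monocytes and neutrophils, so endothelial cells are not its intended target. Each genotype received H2O or, to cause acute liver injury, 200 mg/kg D-galactosamine (D-GalN) together with 1 mg/kg LPS, the lipopolysaccharide of bacterial walls, into the peritoneum. D-GalN stops hepatocytes from making RNA, which makes them sensitive to the tumour necrosis factor that LPS induces. Age, sex and time of collection are not stated in the labels. The labels do not say that libraries of 1 group are from different animals, so p-values measure only the spread between these libraries.

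Sinusoidal endothelium differs from that of other vessels: it is perforated by fenestrae, has no continuous basement membrane, and clears waste molecules and immune complexes from portal blood with scavenger, lectin and Fc receptors. Cdh5 and Pecam1 encode junction proteins of all endothelium, Kdr, Tek and Eng encode receptors for vascular growth factors, and the other members encode clearance receptors. Several are shared with other cells. Macrophages also express Stab1, Lyve1 and Fcgr2b, B cells Fcgr2b, and platelets and leukocytes Pecam1. In whole liver, fewer cells of a type and less of an mRNA per cell cannot be told apart.

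Levels are given as FPKM, which divides the fragments of a gene by its length and by the assigned fragments of its library, between 18381670 and 24799143 here. Differences are log2 differences of FPKM + 1 with their SE, tested with limma over 13708 genes with Benjamini-Hochberg adjustment. "Rose", "fell", "higher" and "lower" in a statement of a test stand for an adjusted p under 0.05. Folds are ratios of group means in FPKM. All 10 members passed the filter of 1 FPKM in at least 2 libraries, Kdr and Tek through H2O libraries alone. Hepatocyte markers summed to between 25966 and 38275 FPKM per library. Glul itself, which hepatocytes also express, had 107 and 106 FPKM in H2O floxed, 89.8 and 134 in H2O KO, 358 and 237 in injured floxed and 74.6 and 90.1 in injured KO livers. The H2O genotypes thus overlapped for Glul in whole liver. Lyz2 had 33.7 and 72.4 FPKM in H2O floxed, 5.27 and 9.92 in H2O KO, 15.9 and 24.5 in injured floxed and 39.9 and 32.7 in injured KO livers. The H2O genotypes did not overlap for Lyz2, but the difference did not pass (adjusted p = 0.16 by limma). The injured KO libraries stood apart from each other in blood content: haemoglobin genes took 1.996% of fragments in replicate 1 and 0.285% in replicate 2, against at most 0.0228% in the other 6 libraries. Replicate 1 also had the higher value for all 10 members, by ratios from 1.34 for Eng to 2.91 for Tek, whereas the median ratio over all tested genes was 1.10.

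Under H2O the order of the members was led by Eng at 20.4 ± 0.426 FPKM in floxed livers (SD, n = 2), followed by Clec4g at 11.99 ± 0.230 FPKM. Stab1 (9.03 ± 1.28 FPKM) and Stab2 (8.38 ± 1.51 FPKM) came next, with ranges that overlapped. Fcgr2b stood at 6.34 ± 0.0727 FPKM and Cdh5 at 5.11 ± 0.126 FPKM. The lowest levels were those of Kdr at 2.13 ± 0.0976 FPKM, Pecam1 at 1.57 ± 0.0671 FPKM, Tek at 1.53 ± 0.143 FPKM and Lyve1 at 1.27 ± 0.357 FPKM, of which Pecam1, Tek and Lyve1 overlapped in turn. In injured KO livers the order was a different one, with Lyve1 at 57.6 ± 16.4 FPKM, Cdh5 at 47.4 ± 14.8 FPKM, Stab1 at 30.3 ± 10.1 FPKM and Eng at 26.95 ± 5.52 FPKM leading, each overlapping the next in range. Kdr, at 0.221 ± 0.0544 FPKM, had the lowest mean.

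**Figure D1:**
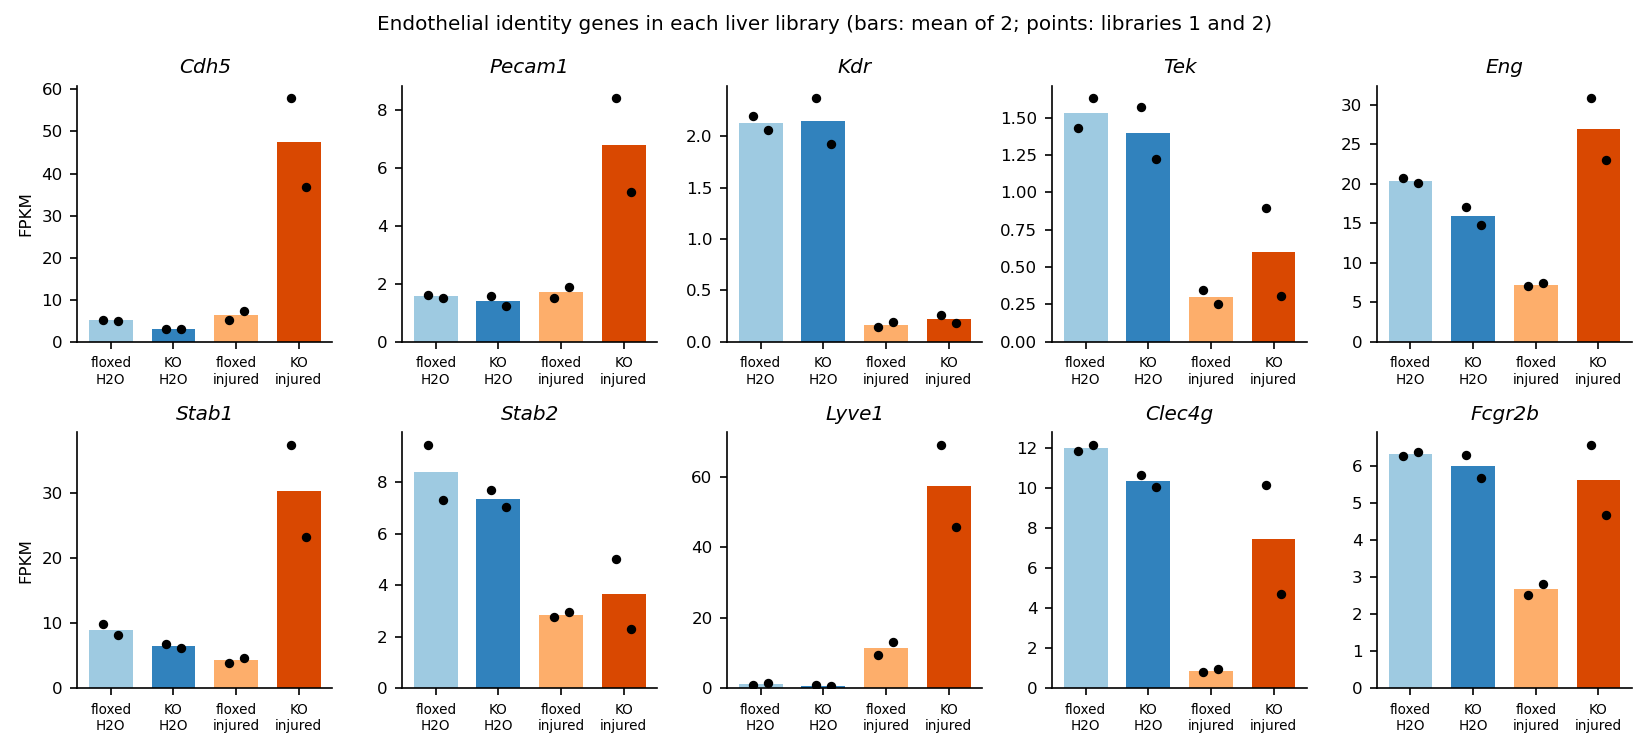
FPKM of the 10 genes (a panel each, with its own vertical axis from 0) in the 4 groups; bars are means of 2 libraries and points are the libraries. Cdh5, Pecam1, Stab1 and Lyve1 are highest in both injured KO libraries, Clec4g is lowest in the injured floxed libraries (0.812 and 0.947 FPKM), and Kdr is low in all 4 injured libraries.

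The promoters of Stab1, Stab2, Kdr and Clec4g are printed because these genes hold the contrasting patterns described below: Stab1 high in injured KO livers, Stab2 and Kdr low after injury in both genotypes, and Clec4g low in injured floxed livers. Each runs from 250 bases before to 50 bases after the annotated start, 5′ to 3′ on the strand of the gene, from RefSeq (GRCm38.p6), which matched 7 of the 10 members. Capitals mark GGAAG or its reverse complement, the core letters bound by ETS factors such as Erg and Fli1, which are needed for endothelial gene expression. The positions are chr14:31168592-31168891 (minus strand) for Stab1, chr10:87007893-87008192 (minus) for Stab2, chr5:75978406-75978705 (minus) for Kdr and chr8:3720602-3720901 (minus) for Clec4g.
Stab1: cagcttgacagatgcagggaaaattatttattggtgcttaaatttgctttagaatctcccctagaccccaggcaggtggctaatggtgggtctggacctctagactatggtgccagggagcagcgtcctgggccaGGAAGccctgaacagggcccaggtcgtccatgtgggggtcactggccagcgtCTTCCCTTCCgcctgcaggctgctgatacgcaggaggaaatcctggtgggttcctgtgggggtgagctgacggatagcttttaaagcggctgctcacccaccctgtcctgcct
Stab2: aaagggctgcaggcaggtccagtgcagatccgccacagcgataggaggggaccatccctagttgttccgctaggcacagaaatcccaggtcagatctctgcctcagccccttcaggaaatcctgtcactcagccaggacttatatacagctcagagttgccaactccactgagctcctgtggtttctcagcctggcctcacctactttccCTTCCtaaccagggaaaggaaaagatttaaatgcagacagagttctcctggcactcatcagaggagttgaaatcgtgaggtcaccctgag
Kdr: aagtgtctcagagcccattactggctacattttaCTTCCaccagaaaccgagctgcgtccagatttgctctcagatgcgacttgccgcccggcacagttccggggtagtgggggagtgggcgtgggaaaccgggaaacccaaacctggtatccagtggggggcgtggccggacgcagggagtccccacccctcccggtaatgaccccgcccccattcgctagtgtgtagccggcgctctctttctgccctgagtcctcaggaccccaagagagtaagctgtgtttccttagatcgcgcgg
Clec4g: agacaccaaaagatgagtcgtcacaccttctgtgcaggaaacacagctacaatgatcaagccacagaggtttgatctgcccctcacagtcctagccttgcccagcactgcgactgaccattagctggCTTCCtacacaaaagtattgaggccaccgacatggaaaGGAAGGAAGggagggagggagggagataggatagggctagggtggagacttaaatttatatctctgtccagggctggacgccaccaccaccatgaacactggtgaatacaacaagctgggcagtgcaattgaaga
Searched on both strands, GGAAG was found in 6 of the 7 promoters (Tek had none) and in 71.1% of 27025 promoters of the same length. Stab1 and Clec4g each held 3 matches, of which 2 overlap by 1 base in Clec4g, and Stab2 and Kdr each held 1. AGATAA, the letters of GATA factors, was found in Tek alone (11.4% of all promoters), and TATAAA in Clec4g alone (14.2%). The AP-1 letters TGANTCA (7.93% of all promoters) were not found in the 7 windows. Of NF-kB motifs only 1 form was searched, which requires T at base 7 (3.92% of all promoters), and it was not found. Looser forms of this motif were not searched, so their absence from any window, that of Kdr included, is not shown.

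The junction genes rose with injury in KO livers. Cdh5 (ENSMUSG00000031871), which encodes VE-cadherin, the adhesion molecule that holds endothelial cells together, had 5.20 and 5.03 FPKM in H2O floxed, 3.15 and 2.99 in H2O KO, 5.14 and 7.41 in injured floxed and 57.9 and 36.9 in injured KO livers. Both injured KO libraries lay far above the other 6. Injury raised Cdh5 15.5-fold in KO livers (3.54 ± 0.24, adjusted p = 2.17e-05), against 0.23 ± 0.24 in floxed livers (adjusted p = 0.424). Injured KO livers had 7.56 times the Cdh5 of injured floxed livers (2.72 ± 0.24, adjusted p = 0.000238). The interaction, which tests whether the response to injury differed between genotypes, was 3.31 ± 0.33 (adjusted p = 0.00123). Pecam1 (ENSMUSG00000020717) encodes CD31, an adhesion molecule of endothelial junctions, and had 1.62 and 1.52 FPKM in H2O floxed, 1.57 and 1.25 in H2O KO, 1.51 and 1.90 in injured floxed and 8.39 and 5.17 in injured KO livers. Its pattern was like that of Cdh5 with a smaller range, the injured KO libraries alone being above 2 FPKM. Pecam1 rose 4.81-fold in KO livers (1.66 ± 0.21, adjusted p = 0.000327), while the difference in floxed livers was 0.07 ± 0.21 (adjusted p = 0.783). Its interaction was 1.59 ± 0.29 (adjusted p = 0.00616).

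The growth factor receptors did not share a pattern. Kdr (ENSMUSG00000062960), the main signalling receptor for vascular endothelial growth factor (VEGF), had 2.20 and 2.07 FPKM in H2O floxed, 2.37 and 1.92 in H2O KO, 0.142 and 0.193 in injured floxed and 0.259 and 0.182 in injured KO livers. All injured libraries were below all H2O libraries, and the injured groups overlapped each other. The mean of Kdr was 12.8-fold lower with injury in floxed livers (-1.43 ± 0.14, adjusted p = 0.000151) and 9.74-fold lower in the KO genotype (-1.36 ± 0.14, adjusted p = 0.000131). These levels rest on between 319 and 457 fragments per H2O library and between 25 and 58 per injured library. KO and floxed livers differed under injury by 0.06 ± 0.14 (adjusted p = 0.726), and the added 1 FPKM shrinks differences at such levels. Tek (ENSMUSG00000006386) encodes Tie2, the receptor of the angiopoietins, and had 1.43 and 1.63 FPKM in H2O floxed, 1.57 and 1.22 in H2O KO, 0.348 and 0.252 in injured floxed and 0.899 and 0.309 in injured KO livers. Again all injured libraries were below all H2O libraries and the injured groups overlapped. Tek fell in floxed livers (-0.96 ± 0.20, adjusted p = 0.00437) and in the KO genotype (-0.60 ± 0.20, adjusted p = 0.0286). The interaction was 0.36 ± 0.28 (adjusted p = 0.346). The call in KO livers was lost without H2O KO replicate 1 (-0.50, adjusted p = 0.126), without injured KO replicate 2 (-0.33, adjusted p = 0.17), and after median centring (-0.38, adjusted p = 0.104). It was also lost with quantile normalisation (adjusted p = 0.131), with low values unfiltered (0.0779) and with the other genotype left out of the fit (0.063).

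Eng (ENSMUSG00000026814) encodes endoglin, the co-receptor through which endothelium receives BMP9 and transforming growth factor beta. It had 20.7 and 20.1 FPKM in H2O floxed, 17.05 and 14.8 in H2O KO, 7.04 and 7.44 in injured floxed and 30.9 and 23.1 in injured KO livers. The genotypes moved apart: injured floxed livers lay below, and injured KO livers above, every H2O library. Eng fell in floxed livers (-1.38 ± 0.18, adjusted p = 0.000513) and rose under injury in the KO genotype (0.71 ± 0.18, adjusted p = 0.00887). The interaction was 2.09 ± 0.25 (adjusted p = 0.00177). Injured KO livers had 3.72 times the level of injured floxed livers (1.75 ± 0.18, adjusted p = 0.000359).

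The paralogous scavenger receptors Stab1 (ENSMUSG00000042286) and Stab2 (ENSMUSG00000035459) parted under injury. Both encoded proteins take up waste from blood, such as modified lipoproteins and, for stabilin-2, hyaluronan. Stab1 had 9.93 and 8.12 FPKM in H2O floxed, 6.81 and 6.19 in H2O KO, 3.92 and 4.66 in injured floxed and 37.5 and 23.2 in injured KO livers. It was lowest in injured floxed and highest in injured KO livers, with no overlap between any of the groups. Stab1 rose 4.67-fold with injury in KO livers (2.03 ± 0.23, adjusted p = 0.000219) and fell in the floxed genotype (-0.92 ± 0.23, adjusted p = 0.0105). The fall did not pass without H2O floxed replicate 1 (-0.79, adjusted p = 0.0658), nor when injured floxed replicate 1 was left out (-0.82, adjusted p = 0.0695). Under injury the KO level was 7.07 times the floxed level (2.53 ± 0.23, adjusted p = 0.000265), and the interaction was 2.95 ± 0.33 (adjusted p = 0.00145). Stab2 had 9.45 and 7.31 FPKM in H2O floxed, 7.69 and 7.03 in H2O KO, 2.76 and 2.97 in injured floxed and 5.01 and 2.32 in injured KO livers. All injured libraries were below all H2O libraries, and the injured KO libraries enclosed the injured floxed ones. Stab2 fell in floxed livers (-1.27 ± 0.27, adjusted p = 0.0047) and also in the KO genotype (-0.90 ± 0.27, adjusted p = 0.0185). The call in KO livers was lost without H2O KO replicate 1 (-0.85, adjusted p = 0.0821) or 2 (-0.96, adjusted p = 0.0533), with injured KO replicate 2 left out (-0.47, adjusted p = 0.0655) and when low values were not filtered (adjusted p = 0.0645). KO and floxed livers differed under injury by 0.21 ± 0.27 (adjusted p = 0.537). That difference was -0.22, adjusted p = 0.38, without injured KO replicate 1 and 0.64, adjusted p = 0.0281, without replicate 2.

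The ratio of Stab1 to Stab2 within a library does not depend on the scaling between libraries. Stab1 was 1.05 and 1.11 times Stab2 in H2O floxed livers and 0.885 and 0.881 times in H2O KO livers. It was 1.42 and 1.57 times Stab2 in injured floxed livers and 7.47 and 10.03 times in injured KO livers. The ratio of Cdh5 to Kdr shifted further, from between 1.33 and 2.43 in the H2O libraries to 36.3 and 38.5 in injured floxed and 224 and 203 in injured KO livers. The members thus did not change by a common factor in either genotype.

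Lyve1 (ENSMUSG00000030787), a receptor for hyaluronan on lymphatic and sinusoidal endothelium, was the member with the widest range. It had 1.02 and 1.52 FPKM in H2O floxed, 0.803 and 0.690 in H2O KO, 9.50 and 13.2 in injured floxed and 69.2 and 45.9 in injured KO livers. Every injured library was above every H2O library, and the injured KO libraries were above the injured floxed ones. Lyve1 rose 8.95-fold in floxed livers (2.44 ± 0.24, adjusted p = 0.000151) and 77.1-fold in the KO genotype (5.04 ± 0.24, adjusted p = 5.9e-06). Under injury the KO level was 5.07 times the floxed level (2.23 ± 0.24, adjusted p = 0.000409), and the interaction was 2.60 ± 0.34 (adjusted p = 0.00214). Of 5 other markers of lymphatic endothelium 3 were tested. The chemokine gene Ccl21a (1.17, adjusted p = 0.000881) and Reln (0.96, 0.0189) were higher in injured KO than in floxed injured livers. Prox1, the transcription factor of lymphatic fate that hepatocytes also express, was lower (-1.22, 0.00304). Reln is also counted below among the stellate cell markers. Ccl21a fell with injury in floxed livers (-0.89, adjusted p = 0.0023), where Lyve1 rose.

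The lectin and the Fc receptor fell in floxed livers. Clec4g (ENSMUSG00000074491) encodes LSECtin, a C-type lectin of sinusoidal endothelium that binds glycans on pathogens and T cells. It had 11.8 and 12.2 FPKM in H2O floxed, 10.6 and 10.1 in H2O KO, 0.812 and 0.947 in injured floxed and 10.2 and 4.69 in injured KO livers. Injured floxed livers stood far below the rest, and 1 of the injured KO libraries was within the range of the H2O KO ones. Its mean was 13.6-fold lower with injury in floxed livers (-2.79 ± 0.28, adjusted p = 0.000165), where 39 and 55 fragments were counted against 619 and 701 under H2O. In KO livers the difference was -0.51 ± 0.28 (adjusted p = 0.143), and it passed as a fall without injured KO replicate 1 (-0.995, adjusted p = 0.00181). Under injury the KO level was 8.44 times the floxed level (2.08 ± 0.28, adjusted p = 0.000833). The interaction was 2.28 ± 0.39 (adjusted p = 0.00512). Fcgr2b (ENSMUSG00000026656), the inhibitory receptor for IgG that removes small immune complexes in the sinusoid, had 6.29 and 6.39 FPKM in H2O floxed, 6.30 and 5.69 in H2O KO, 2.52 and 2.83 in injured floxed and 6.58 and 4.69 in injured KO livers. Again the injured floxed libraries alone stood low. Fcgr2b fell in floxed livers (-0.999 ± 0.16, adjusted p = 0.00158) and differed by -0.09 ± 0.16 in the KO genotype (adjusted p = 0.652), a value that was 0.14 after median centring. It was higher in KO than in floxed livers under injury (0.84 ± 0.16, adjusted p = 0.0041). Its interaction of 0.91 ± 0.23 (adjusted p = 0.0203) did not pass without H2O floxed replicate 1 (adjusted p = 0.0586) or 2 (0.0619), H2O KO replicate 2 (0.0566), with injured floxed replicate 1 left out (0.074), or when low values were not filtered (0.0585).

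**Figure D2:**
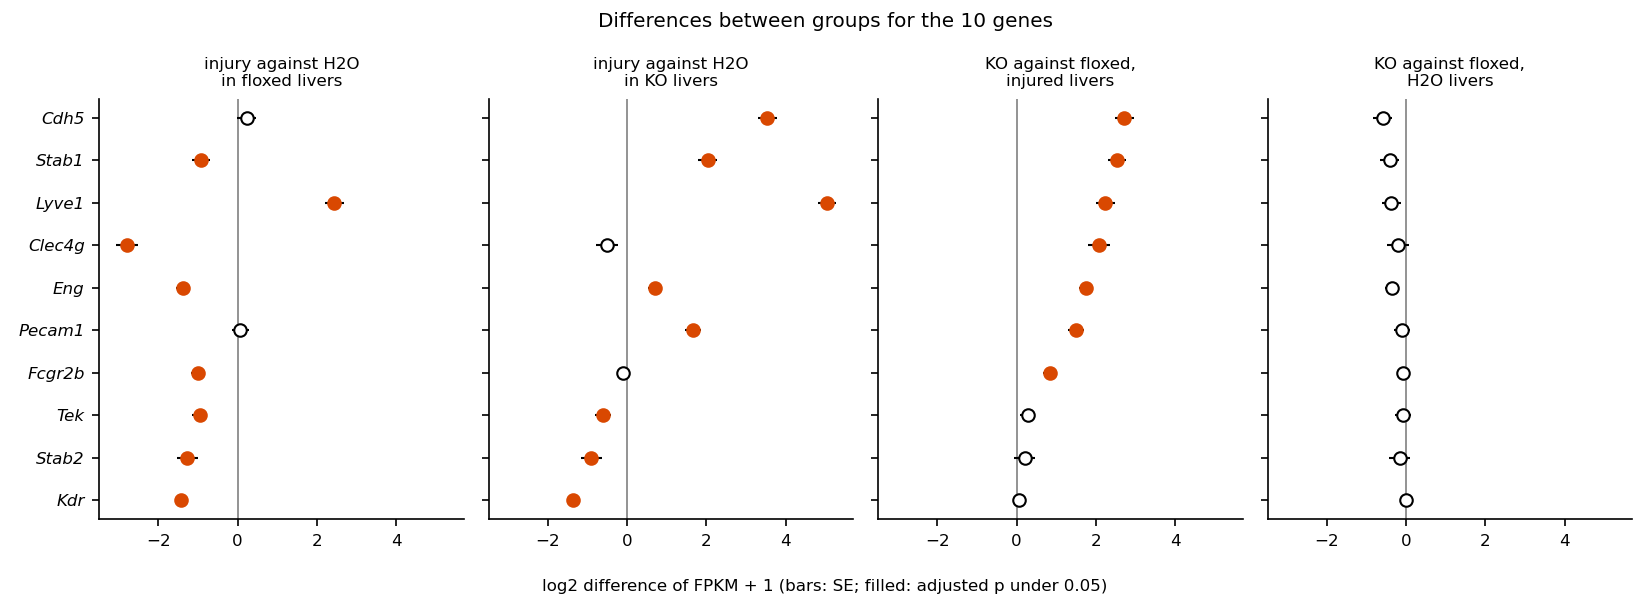
Log2 differences of FPKM + 1 (horizontal axis) of the 10 genes in 4 comparisons, with SE bars; filled points have an adjusted p under 0.05. Injury lowers 7 genes in floxed livers, whereas in KO livers 5 are higher and 3 lower, and 0 pass between genotypes under H2O.

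Counted over the members, injury in floxed livers lowered 7 (Kdr, Tek, Eng, Stab1, Stab2, Clec4g and Fcgr2b) and raised 1, Lyve1, against a background of 57.3% of all tested genes called, 38.8% lower and 18.5% higher. In KO livers 5 rose (Cdh5, Pecam1, Eng, Stab1 and Lyve1) and 3 fell (Kdr, Tek and Stab2), against 63.0% called, 22.3% higher and 40.7% lower. Kdr and Tek, counted as falls in both genotypes, passed the filter through H2O libraries alone, so their inclusion depended on the groups where they are high. The members' median difference was -0.98 after injury in floxed and 0.31 in KO livers, where all tested genes had -0.28 in both. Median centring removes most of that shift and raises the share of higher genes among all calls from 32.3% to 49.7% in floxed and from 35.4% to 48.2% in KO livers. With it, 1 member rose and 7 fell in floxed livers, and 5 rose and 2 fell in KO livers, Tek being the call lost.

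Whether the genotypes differed under injury was tested directly. Of the 10 members 7 (all but Kdr, Tek and Stab2) were higher in injured KO livers and 0 lower, where 52.5% of all tested genes were called, 25.3% higher and 27.2% lower. The median of the members was 1.62 against -0.04 for all tested genes. For 7 members both KO libraries lay above both floxed libraries, as they did for 36.8% of tested genes, and below for 0 (41.8%). The interaction passed for 7 members, all positive, where 36.0% of genes passed, 20.9% in that direction and 15.1% in the other. The comparisons share libraries and are not separate support for each other. Without injured KO replicate 1, the library richer in haemoglobin, 7 members were higher and 0 lower under injury, and 9 were higher and 0 lower without replicate 2, which added Tek and Stab2.

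Between genotypes under H2O, 0 of 10 members passed by limma and 0 with voom on fragments recovered from the FPKM values. At an unadjusted p under 0.05 there was 1 by either tool, which by limma was Cdh5 (-0.59 ± 0.24, adjusted p = 0.843). Only 0.0073% of all tested genes passed in this comparison, which was 1 gene. Both KO libraries lay below both floxed libraries for 5 members (Cdh5, Eng, Stab1, Lyve1 and Clec4g), as they did for 28.7% of tested genes, and above for 0 (5.91%). Of 10 Kupffer cell markers 0 passed in this comparison, with sums of 273 and 305 FPKM in H2O floxed and 119 and 134 FPKM in H2O KO livers, and their part in these values was not tested.

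Other genes of vessels were described by lists. Of 27 further genes shared by most endothelium 24 were tested. In injured floxed livers 12 of them fell and 3 rose, where 38.8% and 18.5% of all tested genes did. In injured KO livers 14 rose and 4 fell, against 22.3% and 40.7% of all tested genes, and under injury 19 were higher in KO than in floxed livers and 0 lower (median 1.08), against 25.3% and 27.2%. Claudin-5 (Cldn5), a tight junction protein, had 0.145 and 0.240 FPKM in injured floxed and 17.7 and 10.5 FPKM in injured KO livers (3.62, adjusted p = 0.000173). The adhesion molecules Icam2 (2.16, adjusted p = 0.000313) and Esam (2.53, 0.000353) and the C-type lectin Cd93 (2.05, 0.000325) were higher as well. Among falls with injury in floxed livers were Ptprb (-1.83, adjusted p = 0.000175), the phosphatase that restrains Tie2, the transcription factor genes Sox17 (-0.99, 0.000772) and Sox18 (-0.88, 0.00155), and Gpihbp1 (-1.26, 0.00108), whose product carries lipoprotein lipase. Ptprb, Sox17 and Sox18 also fell in KO livers (-0.82, -0.50 and -1.02), as Kdr and Tek did. Of the 24, Sox17, Sox18 and Clec14a passed the filter through H2O libraries alone, and Flt1 and Myct1 through the injured KO libraries alone, so their inclusion depended on the group where they are high. Adgrl4, Aplnr and Emcn were under the filter.

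Of 14 further sinusoidal genes 9 were tested. With injury in floxed livers 6 fell and 0 rose, where 38.8% and 18.5% of all tested genes did. In KO livers 3 rose and 2 fell, against 22.3% and 40.7% of all tested genes. Under injury 7 were higher in KO livers and 0 lower (median 0.91), against 25.3% and 27.2%. Without injured KO replicate 1, 4 were higher and 1 lower. Higher genes were Dnase1l3, a secreted DNase (2.18, adjusted p = 0.000449), the Wnt enhancer Rspo3 (0.81, 0.00668), Bmp2, which drives hepcidin in hepatocytes (1.24, 0.0093), and Gpr182, an atypical chemokine receptor (1.02, 0.0101). Ehd3, a membrane trafficking protein, fell in both genotypes (-1.82 and -1.26), as did Gata4, a transcription factor that specifies this endothelium (-1.39 and -1.30). In whole liver the cells that the Gata4 mRNA came from cannot be told apart. The Wnt ligand genes Wnt2 and Wnt9b were under the filter, with at most 0.499 and 0.259 FPKM, as were F8, Meis2 and Bmp6. Of 10 genes listed for continuous, arterial or large-vessel endothelium only Plvap, Gja4, Ly6a and Edn1 were tested. Plvap is not particular to such vessels, as fenestrated endothelium also expresses it. All 4 rose in KO livers, as 22.3% of all tested genes did. They were also higher there than in floxed livers under injury, as 25.3% of all tested genes were. The gap junction gene Gja4, for example, had 5.32 and 5.18 FPKM in injured floxed and 36.3 and 25.03 FPKM in injured KO livers (2.32, adjusted p = 0.000308). Cd34 and Vwf, which appear on endothelium that loses its sinusoidal character, were under the filter, with at most 0.323 and 1.82 FPKM, and were not tested. Vwf had 0.108 and 0.135 FPKM in injured floxed and 1.82 and 0.889 FPKM in injured KO livers. For Cd34 these values were 0.323 and 0.0465 against 0.210 and 0.129 FPKM.

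**Figure D3:**
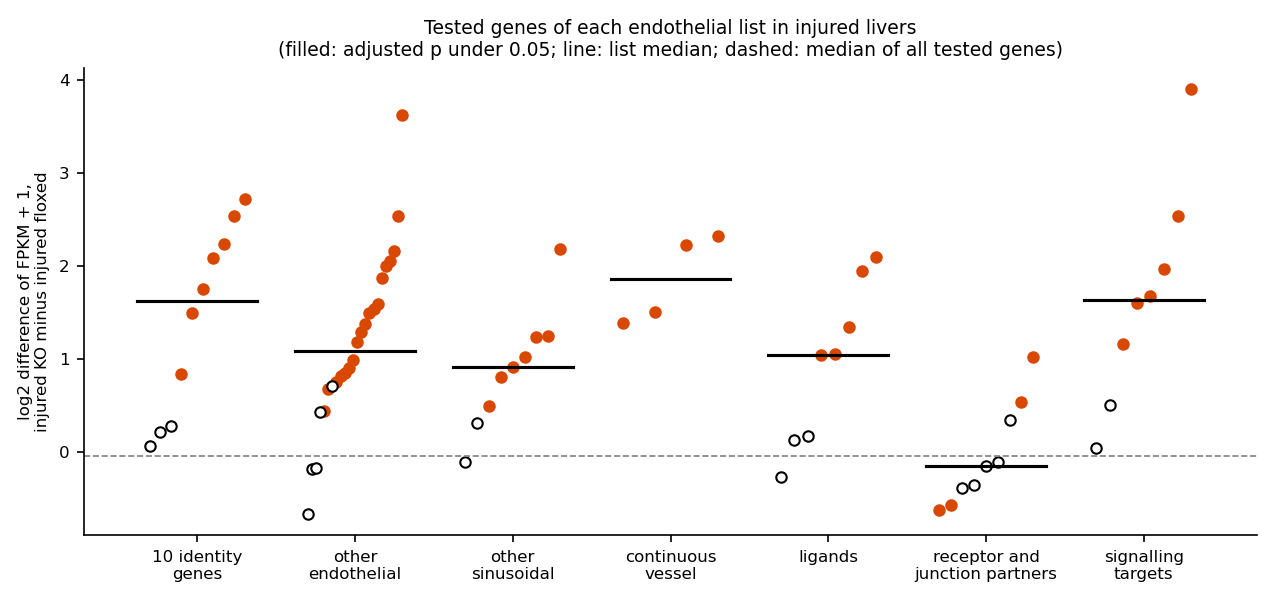
Log2 difference of FPKM + 1 between injured KO and injured floxed livers (vertical axis) for every tested gene of 7 lists; filled points have an adjusted p under 0.05, solid lines are list medians and the dashed line is the median of all tested genes (-0.04). The medians of 6 lists lie between 0.91 and 1.86, and that of the receptor and junction partners at -0.16.

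Among vascular growth factor genes 8 were tested. Most of their products bind Kdr, Tek or Eng, and that of Vegfb binds the related receptor Flt1. With injury 5 of them were higher in KO than in floxed livers and 0 lower, against 25.3% and 27.2% of all tested genes. Angpt2, which weakens Tie2 signalling and is released by activated endothelium, had 1.26 and 1.69 FPKM in injured floxed and 9.84 and 7.32 FPKM in injured KO livers (1.94, adjusted p = 0.000243). Tgfb1 (2.09, 0.000298), the lymphatic growth factor gene Vegfc (1.06, 0.00088) and Vegfb (1.04, 0.00288) were higher too. Bmp10, a ligand of endoglin and the fifth of these genes (1.34, 0.00542), passed the filter through the injured KO libraries alone. Vegfd, which was not among the 5, passed it through H2O libraries alone. Gdf2, the gene of BMP9, did not differ by this test (-0.27, adjusted p = 0.381). It fell with injury in both genotypes (-1.05, adjusted p = 0.00709 for floxed and -0.91, 0.0116 for KO livers). Vegfa, the main ligand of Kdr, had 113 and 110 FPKM in H2O floxed, 120 and 86.7 in H2O KO, 24.5 and 36.6 in injured floxed and 40.7 and 26.5 in injured KO livers. It fell with injury in both genotypes, as Kdr did (-1.86, adjusted p = 0.00111 for floxed and -1.61, 0.00177 for KO livers). Of 9 receptor and junction partners 2 were higher and 2 lower in injured KO livers, near the 25.3% and 27.2% of all tested genes. Acvrl1, the BMP9 receptor that works with endoglin, was higher (1.02, adjusted p = 0.00104), as was Bmpr2 (0.54, 0.0484). Tgfbr1 (-0.63, 0.00559) and Ctnnd1, the catenin that stabilises VE-cadherin (-0.57, 0.00793), were lower. Of 8 tested targets of these signals 6 were higher and 0 lower, against 25.3% and 27.2% of all tested genes. They include the BMP9 targets Id1 (1.97, adjusted p = 0.000182) and Id3 (2.54, 0.000778), the Notch target Hes1 (1.67, 0.000267) and the endothelial early response gene Apold1 (3.90, 0.000298), which had 0.690 and 0.797 FPKM in injured floxed and 40.7 and 15.2 FPKM in injured KO livers. Apold1 and Esm1, both among the 6, passed the filter through the injured KO libraries alone.

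The genes whose levels were most like those of Cdh5 over the 8 libraries were Abcc1, Klf2, Sema4d, Hcls1 and Ppp1r18, with Pearson's r of log2(FPKM + 1) between 0.996 and 0.999. Klf2, a flow-responsive transcription factor of endothelium that leukocytes also express, had 31.5 and 22.3 FPKM in injured KO livers and at most 4.73 FPKM elsewhere. Hcls1, a gene of blood cells, had 33.2 and 23.5 FPKM in injured KO livers and at most 6.37 FPKM elsewhere. Those most like Stab2 were Simc1, H2bc21, Cuedc1, Mrpl33 and Tedc2 (r between 0.983 and 0.989). Among members, the r of Fcgr2b with Clec4g was 0.99, that of Pecam1 with Cdh5 0.98 and that of Stab2 with Tek 0.96, whereas Kdr and Lyve1 had -0.90. The libraries fall into groups of like treatment, so these values describe likeness and carry no test.

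Under injury, markers of other cells mostly differed between the genotypes in the same direction as 7 of the 10 members. The response to injury in floxed livers was not shared by all lists. There, 5 of 5 tested monocyte and 7 of 7 neutrophil markers rose (medians 1.34 and 2.22), whereas 7 members fell (median of the 10 -0.98). Of the Kupffer cell markers 8 of 10 fell there (median -1.998), as did 3 of 4 tested B cell markers (-1.20). Of all tested genes 18.5% rose and 38.8% fell with injury in floxed livers. Both injured KO libraries lay above both injured floxed ones for 36.8% of all tested genes. All 10 Kupffer cell markers had both injured KO libraries above both injured floxed ones, summing to 60.6 and 91.1 FPKM in floxed and 515 and 279 FPKM in KO livers. The same held for 5 of 7 monocyte markers (106 and 127 against 297 and 221 FPKM) and 7 of 7 neutrophil markers (99.8 and 167 against 960 and 1004 FPKM). It held for 5 of 6 B cell markers (5.83 and 4.10 against 20.4 and 18.6 FPKM) and 7 of 9 stellate cell markers (47.2 and 33.5 against 154 and 78.2 FPKM). Platelet markers had 7 of 8 above (2.99 and 3.43 against 68.2 and 20.2 FPKM), Gp1bb being at 0 in every library. Red blood cell markers had 5 of 5 above (84.5 and 89.99 against 26158 and 3741 FPKM). Of 7 hepatocyte markers 4 were higher and 1 lower in injured KO than in floxed livers (median 1.02), against 25.3% and 27.2% of all tested genes. Asgr1 (1.63), Apoa1 (1.83) and Ttr (1.70) were among the higher ones. Apob was lower (-1.30, adjusted p = 0.00107), and Alb (0.015) and Cps1 (-0.52) did not pass. The 7 summed to 25966 and 26700 FPKM in floxed and 38275 and 37162 FPKM in KO livers. The 10 members summed to 33.7 and 41.8 FPKM in injured floxed and to 227 and 147 FPKM in injured KO livers. The part of these cells in the levels of the members was not tested.

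**Figure D4:**
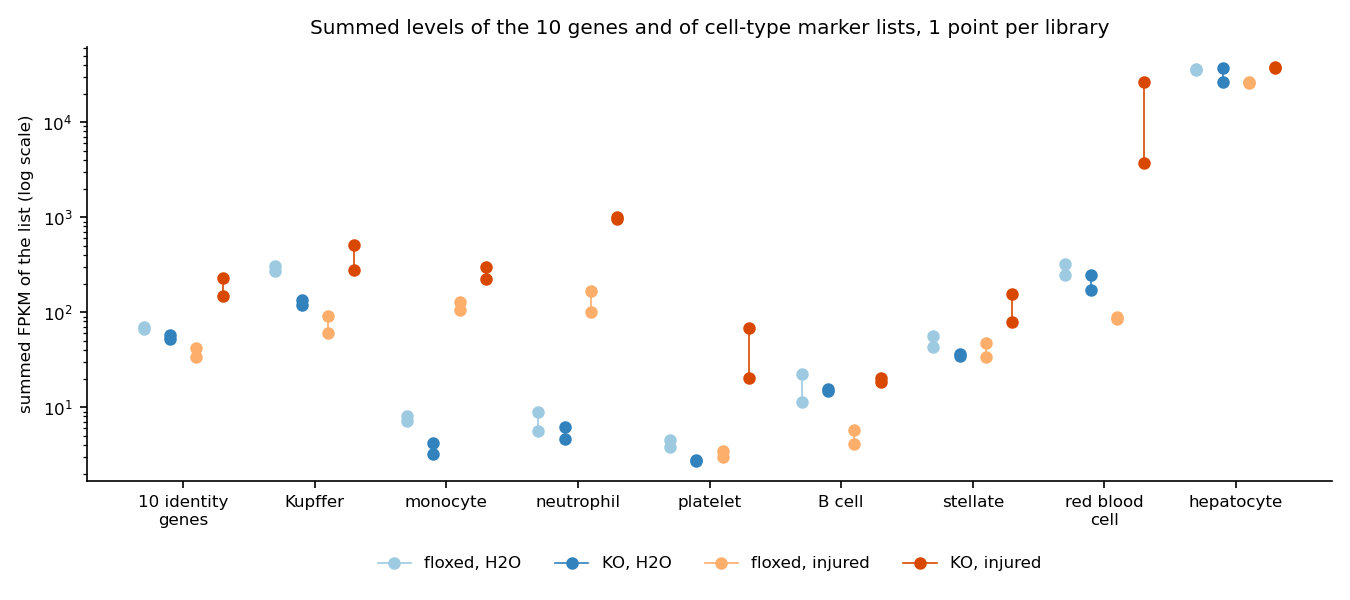
Summed FPKM (log scale) of the 10 genes and of 8 marker lists in each library, coloured by group, with a line joining the 2 libraries of a group. Injured KO libraries lie above injured floxed ones for every list shown, most of all for red blood cell markers (26158 and 3741 against 84.5 and 89.99 FPKM).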

How the data were processed

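RNA from whole liver was extracted with TRIzol and sequenced on a NovaSeq instrument from NEBNext Ultra libraries, per the labels. The authors deposited 1 table of FPKM values with a column per library, matched to samples by their descriptions. The submitters' processing notes name DESeq2 3.15 and GRCm39; the aligner, counter and annotation are not stated there. With the exon lengths of GENCODE M21, between 98.2% and 98.5% of values above 0 were within 0.01 of whole fragments, which gave each library's total.

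Values were used as log2(FPKM + 1) for genes with at least 1 FPKM in 2 libraries, and fitted with limma 3.58.1 in R 4.3.3 (4 group means, trend in the variance, two-sided, Benjamini-Hochberg over 13708 genes, threshold 0.05). Identifiers sharing a symbol were told apart, the one with the highest mean keeping it; the marker symbol Tf did not match a row. Figures were drawn with matplotlib 3.10.9. The members, lists and alternatives were chosen with earlier results of these data known. Named beside the members are up to 4 genes with the smallest p per list and comparison, the 5 genes most like Cdh5 and Stab2, and genes under the filter. Ptprb, Sox17, Sox18 and Vegfa in KO livers were chosen after their values were seen. So were Bmp10, Gdf2, Esm1, Alb, Cps1, genes named for how they passed the filter and the levels of Klf2, Hcls1, Vwf and Cd34. Leaving out either injured KO library for the gene lists was added after seeing the data. Promoter sequences are from RefSeq. Replicate numbers in the titles are not said to mark a shared batch.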

Additional observations from a re-analysis of the deposited data

Results flagged for a closer look

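Injury acted differently by genotype in 7 of the 10 members, by the test of the interaction with limma over all genes. Of all tested genes 36.0% passed this test, 20.9% with a positive and 15.1% with a negative value. The call for Fcgr2b was lost when low values were not filtered and when some single libraries were left out, as given above. The difference of the log2 responses, KO minus floxed, was 3.31 for Cdh5, 2.95 for Stab1, 2.60 for Lyve1, 2.28 for Clec4g, 2.09 for Eng, 1.59 for Pecam1 and 0.91 for Fcgr2b. In floxed livers Eng and Stab1 fell and in KO livers both rose, while Clec4g and Fcgr2b fell in floxed livers alone by the tests above. Injured KO replicate 1 was above replicate 2 for each of the 7.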

How the results depend on the processing

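The alternatives were a pseudocount of 0.1, no filter, a minimum mean of 5 FPKM, quantile normalisation, median centring, scaling without mitochondrial and haemoglobin genes, voom on recovered fragments, only the groups compared, the replicate block and leaving out each library. Members called in KO livers after injury numbered 8, and 5 with a mean of at least 5 FPKM, which tests 7 of the 10. The replicate block left the member counts at 8, 8, 7, 0 and 7 (injury in floxed, injury in KO, genotype under injury, genotype under H2O, interaction) and changed no call. Replicate differences correlated between groups by -0.104 to 0.27. With 1 such difference per group, these values cannot show whether the numbers pair samples. Leaving out 1 library gave 7 to 8, 6 to 9, 7 to 9, 0 and 6 to 8. Values that were not called with all libraries and changed sign follow, the cause not tested. With median centring and quantile normalisation, the H2O genotype difference was 0.010 and 0.00077 for Pecam1, 0.025 and 0.013 for Tek and 0.034 and 0.041 for Fcgr2b, the injury difference of Fcgr2b in KO livers 0.14 and 0.044, and, for quantile normalisation, the interaction of Kdr -0.083. With 1 library left out, the H2O genotype difference ranged from -0.19 to 0.0028 for Pecam1, -0.10 to 0.11 for Kdr, -0.18 to 0.026 for Tek and -0.32 to 0.0066 for Stab2. The injury difference of Pecam1 in floxed livers ranged from -0.031 to 0.18 and that of Fcgr2b in KO livers from -0.30 to 0.12. The interaction ranged from -0.042 to 0.16 for Kdr and -0.061 to 0.80 for Stab2, whose injured genotype difference ranged from -0.22 to 0.64; the upper values of Stab2, without injured KO replicate 2, passed (adjusted p = 0.041 and 0.0281 by limma). With 2 libraries a group, and 25 to 58 fragments for Kdr after injury, small differences were not detectable.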
